A study of Mus musculus with 10 samples.

Results

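Ly6c1, Ly6c2, Ly6a, Ly6e and Gpihbp1 are 5 genes of the Ly6 superfamily that lie close together on mouse chromosome 15. They were found by symbol among the 55385 gene rows deposited for every library, through a GRCm38 annotation (GENCODE M21), and 4 of the 5 passed a default filter on low counts that left 12872 genes for testing. Ly6c2 did not pass it. RNA came from homogenised frozen mouse liver and was sequenced on a BGISeq-500 instrument. Of the 10 libraries 5 carry the label Alk1-HEC-KO and 5 the label Control, and the title of the series gives Alk1 as an alias of Acvrl1, the gene knocked out. HEC is not spelled out, and the promoter or cell type that drives the deletion, the age and the sex of the mice are not given in the labels used here. No label states a treatment, and whether each library stands for its own mouse is not stated, so the p-values measure only the spread between these libraries, which may be technical.

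Ly6 proteins are small proteins with a Ly6/uPAR domain, a compact fold held by disulphide bonds, and most are tethered to the outer membrane by a glycosylphosphatidylinositol (GPI) anchor. Ly6c1 and Ly6c2 encode near-identical forms of the Ly6C antigen. Ly6c1 is known from capillary endothelium and Ly6c2 from monocytes. Ly6a encodes Sca-1, an antigen of blood stem cells that some endothelial cells also carry, and both Ly6a and Ly6e, a widely expressed member that limits entry of some viruses, are known interferon-induced genes. Gpihbp1 encodes the endothelial protein that captures lipoprotein lipase outside capillaries of heart, muscle and fat and carries it to the capillary lumen, where the lipase acts on triglyceride-rich lipoproteins. Continuous capillaries and the fenestrated sinusoids of liver are different vessel types, and Gpihbp1 is best known from the continuous kind.

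The libraries held 20.91 to 21.56 M estimated counts (M, mega). Hepatocyte markers were present in both groups, with albumin (Alb) at a mean of 36370 TPM in libraries labelled Alk1-HEC-KO and 36047 TPM in control libraries. TPM is a transcript abundance scaled for transcript length and to the same sum in every library. Acvrl1, the gene named as deleted, was not lower in the libraries labelled Alk1-HEC-KO. It averaged 1.36 ± 0.331 TPM in libraries labelled Alk1-HEC-KO and 0.669 ± 0.331 TPM in control libraries (SD, n = 5 each), a log2 fold change of 0.99 ± 0.32 (SE; adjusted p = 0.34, edgeR). Its TPM ranged from 1.12 to 1.92 in libraries labelled Alk1-HEC-KO and from 0.296 to 1.05 in controls, without overlap. As log2 counts scaled to the same total, the groups overlapped. Whether gene-level estimates can show this deletion was not tested. The libraries are therefore called KO-labelled below, and every direction rests on that label. KO-labelled libraries 4 and 5 and control library 4 had over 1000 TPM of Saa1, an acute-phase protein, and control libraries 1 and 2 had over 20 TPM of Fos, an immediate early gene. The file numbers fall into 3 runs that the labels do not explain. The first holds KO-labelled library 1 with controls 1 and 2, the second library 3 with controls 3 to 5, and the third KO-labelled libraries 2, 4 and 5 with no control.

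Ly6c1 was far higher in the KO-labelled libraries, Ly6a and Gpihbp1 were higher by smaller amounts that did not pass the test over all genes, and Ly6e did not differ beyond the spread between libraries. A gene was called when its edgeR quasi-likelihood p, adjusted by the Benjamini-Hochberg method over all tested genes, was under 0.05. By that rule 1 of the 4 tested genes, Ly6c1, was called higher, where 0.186% of all tested genes were called higher. An unadjusted p under 0.05 was reached by 3 of the 4, all with a positive fold change, where 5.03% of all tested genes were higher at that level. The groups did not overlap in TPM for 2 of the 5 genes, Ly6c1 and Ly6a, where 1.31% of tested genes had all KO-labelled libraries above all controls. The median log2 fold change of the 4 tested genes was 1.17, against 0.0 for all tested genes. The 5 genes were chosen with earlier results of these data known, so these counts describe them and do not test the family.

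**Figure D1:**
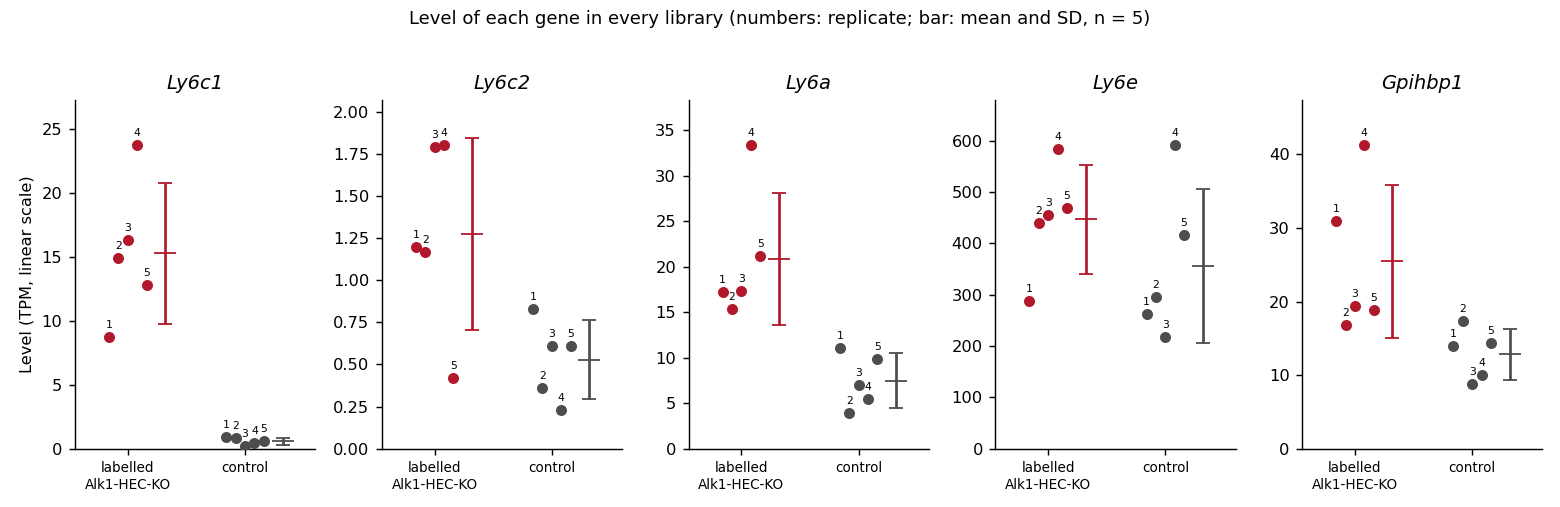
TPM of Ly6c1, Ly6c2, Ly6a, Ly6e and Gpihbp1 in each library, with linear axes that start at 0 and differ between panels. Points are libraries, numbered by replicate, with KO-labelled libraries left of controls, and the bars beside them give mean and SD (n = 5). Only Ly6c1 and Ly6a of these 5 show no overlap between the groups, with Ly6c1 at 8.71 to 23.7 TPM in KO-labelled libraries and 0.233 to 0.878 TPM in controls.

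Ly6c1 and Ly6c2 are hard to tell apart by sequence, which bears on every value given for either. Their coding sequences are both 396 bases long and differ at 9 positions, so that 97.7% of positions are identical, and the longest stretch without a difference runs for 188 bases (coding positions 66 to 253, counted from 1 at the A of the start codon). The first 120 coding bases hold 6 of the 9 differences. They are shown because reads from this stretch can tell the copies apart, with the differing bases in capitals, 5′ to 3′ on the coding strand, from the GENCODE M21 transcripts of GRCm38.
Ly6c1-201: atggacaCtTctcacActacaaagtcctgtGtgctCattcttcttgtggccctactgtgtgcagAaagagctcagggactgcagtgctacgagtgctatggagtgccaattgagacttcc
Ly6c2-201: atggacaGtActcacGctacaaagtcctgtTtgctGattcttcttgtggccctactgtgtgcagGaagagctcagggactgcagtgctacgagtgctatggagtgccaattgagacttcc
The quantifier kallisto matches reads to transcripts by short words of sequence, with a default length of 31 bases (the length used by the authors is not given in the sources used here). Of the 1758 distinct 31-base words in the annotated transcripts of Ly6c1, 46.8% also occur in transcripts of another gene, and 33.0% occur in Ly6c2. Of those of Ly6c2, 23.8% are shared, and 21.4% occur in Ly6c1. Of those of Ly6a, 31.9% are shared, and 21.9% occur in Ly6c1. The figure was 0.422% for Ly6e and 0 for Gpihbp1, whose reads are thus not split with another gene at that word length.

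Ly6c1 (ENSMUSG00000079018.10, GRCm38 chromosome 15, 75044018 to 75048830, minus strand) had 8.71, 14.9, 16.3, 23.7 and 12.8 TPM in KO-labelled libraries 1 to 5, against 0.878, 0.809, 0.233, 0.43 and 0.639 TPM in controls 1 to 5. Every KO-labelled library lay above every control, and none of the controls reached 1 TPM. The means were 15.3 ± 5.51 TPM in KO-labelled libraries and 0.598 ± 0.267 TPM in controls (SD, n = 5 each). The log2 fold change was 5.07 ± 0.40 (SE), which is 33.7-fold with a 95% interval of 18.6 to 60.9 (adjusted p = 2.7e-05, edgeR quasi-likelihood test). Ly6c1 ranked 3 among all 12872 tested genes both by p and by size of increase. The permutation p for the difference in mean TPM was 0.0079 (exact, two-sided), the smallest that 5 against 5 libraries can give. One such test was run for each of the 5 genes, and these p-values are unadjusted.

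The control level of Ly6c1 rests on few reads. The 5 KO-labelled libraries held 901 estimated counts of Ly6c1 and the 5 controls 25, a ratio of 36.3 after scaling to depth, with an exact 95% binomial interval of 24.4 to 56.3 that covers counting error only. In the first run of file numbers, KO-labelled library 1 had 8.71 TPM and its controls 0.878 and 0.809 TPM. In the second, library 3 had 16.3 TPM and its controls 0.233 to 0.639 TPM. With the run as a covariate the log2 fold change was 4.59 (adjusted p = 0.00067, edgeR), and without the 3 libraries high in Saa1 it was 4.48 (adjusted p = 0.00034, edgeR). In bulk liver, more cells that carry a transcript and more transcript per cell cannot be told apart, here and for every gene below.

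Ly6c2 (ENSMUSG00000022584.14, chromosome 15, 75108158 to 75111970, minus strand) lies 59327 bases from Ly6c1 and was low in all libraries. It had 1.2, 1.17, 1.79, 1.8 and 0.418 TPM in KO-labelled libraries 1 to 5, against 0.831, 0.361, 0.607, 0.232 and 0.608 TPM in controls 1 to 5. KO-labelled libraries 1 to 4 lay above all controls, and library 5 lay among them. The means were 1.27 ± 0.567 TPM in KO-labelled libraries and 0.528 ± 0.235 TPM in controls (SD, n = 5 each; exact two-sided permutation p = 0.032). Leaving out KO-labelled library 1, 2, 3 or 4 or control 2 or 4 each raised that permutation p to 0.063, with differences in mean TPM of 0.615 to 0.772. No test over all genes called Ly6c2. The gene held 80 counts in KO-labelled libraries and 30 in controls, a depth-scaled ratio of 2.68 (exact 95% binomial interval 1.74 to 4.23). The interval covers counting error of estimated counts only, not the spread between libraries or the sharing of reads with Ly6c1. How much of the Ly6c2 estimate came from Ly6c1 reads was not tested.

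The summed counts of the copies do not depend on how reads were split between them. Summed TPM can do so, as TPM is scaled for transcript length, and both sums keep any sharing of reads with other genes. The pair averaged 16.6 ± 5.87 TPM in KO-labelled libraries and 1.13 ± 0.404 TPM in controls (SD, n = 5 each). As 1 row in the test the sum was 16.8-fold higher, a log2 fold change of 4.07 ± 0.36 (SE; adjusted p = 0.00014, edgeR). The make-up of the pair differed as well. Ly6c1 accounted for 87.9 to 96.8% of the pair's TPM in KO-labelled libraries, against 27.7 to 69.1% in controls, and the groups did not overlap (p = 0.0079, exact two-sided permutation test, the smallest possible). The control shares rest on 5 to 17 counts of the pair in each library.

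**Figure D2:**
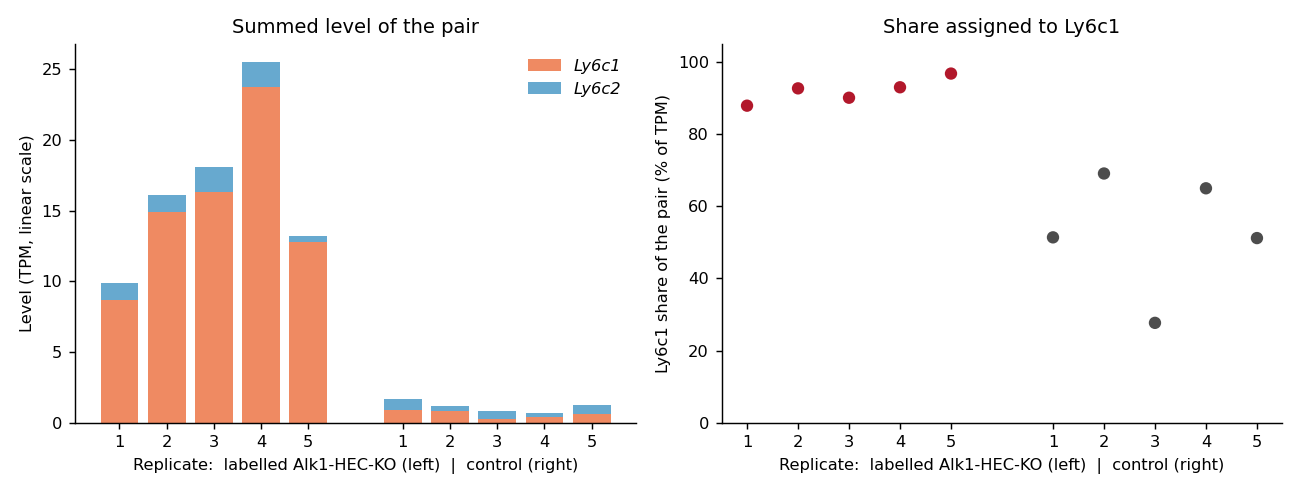
Left, stacked bars of Ly6c1 and Ly6c2 TPM in each library on a linear axis from 0. Right, the share of the pair's TPM assigned to Ly6c1, in percent. KO-labelled libraries stand left of controls in both panels. The summed bar is 9.91 to 25.5 TPM in KO-labelled libraries and 0.662 to 1.71 TPM in controls, and the Ly6c1 share is at least 87.9% on the left and at most 69.1% on the right.

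The stretches just upstream of the genes are less alike than their coding sequences. Of the 5 genes, Ly6c1 and Ly6c2 have an entry in the promoter table used. The 250 bases before each start site are shown because the neighbouring copies differed in fold change. They are printed 5′ to 3′ on the gene's strand from RefSeq (GRCm38.p6), and capitals mark bases with no identical partner in a global alignment of the pair. The first is chr15:75048838-75049087 and the second chr15:75111972-75112221, both on the minus strand.
Ly6c1 promoter: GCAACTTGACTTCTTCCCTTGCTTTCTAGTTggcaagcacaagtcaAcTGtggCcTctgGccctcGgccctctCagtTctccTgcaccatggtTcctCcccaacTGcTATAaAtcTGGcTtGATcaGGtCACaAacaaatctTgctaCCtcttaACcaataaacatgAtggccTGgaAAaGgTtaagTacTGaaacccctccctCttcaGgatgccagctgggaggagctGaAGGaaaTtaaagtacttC
Ly6c2 promoter: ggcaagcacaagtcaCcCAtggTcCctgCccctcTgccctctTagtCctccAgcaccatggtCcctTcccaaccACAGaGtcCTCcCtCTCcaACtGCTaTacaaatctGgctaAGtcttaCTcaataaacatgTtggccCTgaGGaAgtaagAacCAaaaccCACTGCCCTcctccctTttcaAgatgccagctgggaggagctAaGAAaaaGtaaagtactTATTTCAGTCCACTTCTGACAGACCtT
Of 216 aligned positions 164 were identical, or 75.9%. Because ALK1 signals through SMAD proteins and Ly6 genes respond to interferon, 4 motifs were searched on both strands. None matched in either stretch. The GC-rich SMAD element GGCGCC occurs in the same 250-base window of 9.59% of 32851 RefSeq mouse promoters, the palindromic SMAD element GTCTAGAC in 0.167%, the core of the interferon-stimulated response element (GAAA, any 2 bases, GAAA) in 2.98% and the interferon gamma-activated site TTCNNNGAA in 7.02%. The absence says only that these letters are not in these windows.

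Ly6a (ENSMUSG00000075602.10, chromosome 15, 74994877 to 74998031, minus strand), which encodes Sca-1, had 17.2, 15.3, 17.3, 33.3 and 21.2 TPM in KO-labelled libraries 1 to 5, against 11.1, 3.93, 7.0, 5.51 and 9.86 TPM in controls 1 to 5. The groups did not overlap in TPM, nor in log2 CPM (counts scaled to the same total), where 0.948% of tested genes had all KO-labelled libraries above all controls. The lowest KO-labelled library stood above the highest control. The means were 20.9 ± 7.28 TPM in KO-labelled libraries and 7.47 ± 2.96 TPM in controls (SD, n = 5 each; exact two-sided permutation p = 0.0079, the smallest possible). The log2 fold change was 1.42 ± 0.35 (SE), or 2.68-fold with a 95% interval of 1.57 to 4.58, and over all genes it was not called (adjusted p = 0.19, edgeR). DESeq2, run as an alternative, gave the same fold change and called it (adjusted p = 0.0047), with 0.507% of the 16372 genes it gave an adjusted p called higher.

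Within each run of file numbers that holds both groups, Ly6a was higher in the KO-labelled library, of which each such run has only 1. Library 1 had 17.2 TPM and its controls 11.1 and 3.93 TPM, and library 3 had 17.3 TPM and its controls 7.0, 5.51 and 9.86 TPM. The log2 fold change was 1.06 ± 0.47 (SE) with the run as a covariate and 1.05 ± 0.39 (SE) without the third run. Neither fit called Ly6a. Without the libraries high in Saa1 the log2 fold change was 0.83 (adjusted p = 0.92, edgeR). The interferon list, which Ly6a and Ly6e are not in, had 29 tested genes, of which 28 had a positive log2 fold change and 0 were called, with a median of 0.62. Its summed level was 523 to 1010 TPM in KO-labelled libraries and 403 to 635 TPM in controls. The highest sum was that of KO-labelled library 2, which stood apart in several of these genes, named after their values were seen. Ifit1, a binder of viral RNA, had 20.6 TPM in KO-labelled library 2 and at most 4.23 TPM in every other library, and Usp18, a protease that removes the modifier ISG15, had 23.4 TPM there and at most 8.69 TPM elsewhere. The same library had the lowest Ly6a of the KO-labelled group, and without it the log2 fold change of Ly6a was 1.57 (adjusted p = 0.11, edgeR). The most abundant gene of the list was Bst2, a surface protein that holds back virus release, at 187 TPM in KO-labelled and 167 TPM in control libraries. The part of interferon genes in the Ly6a difference was not tested.

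Ly6e (ENSMUSG00000022587.14, chromosome 15, 74955051 to 74959905, plus strand) was by far the most abundant of the 5. It had 287, 440, 455, 584 and 469 TPM in KO-labelled libraries 1 to 5, against 262, 295, 218, 591 and 417 TPM in controls 1 to 5. The groups overlapped throughout, and the highest library of all was control 4. The means were 447 ± 106 TPM in KO-labelled libraries and 357 ± 150 TPM in controls (SD, n = 5 each; exact two-sided permutation p = 0.27). The log2 fold change was 0.31 ± 0.26 (SE; adjusted p = 0.78, edgeR), and its 95% interval of −0.24 to 0.87 reaches up to 1.83-fold. Without control 4 the difference in mean TPM was 149 (exact permutation p = 0.048), and with all libraries it was 90.3.

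The levels of Ly6e ran with those of Saa1 in both groups. Saa1 had 61.5, 196, 874, 6733 and 13331 TPM in KO-labelled libraries 1 to 5, against 55.5, 49.7, 146, 6586 and 351 TPM in controls 1 to 5. The search for the closest genes left out Gm and Rik predictions, pseudogenes marked -ps, mitochondrially encoded and Y chromosome genes, Xist and genes without a symbol. Among the other tested genes, the log2 CPM of Saa1 had the highest correlation with Ly6e, a Pearson r of 0.96 over the 10 libraries. It was the highest again when each group was centred on its own mean (r = 0.955). Hpx, which encodes the haem-binding acute-phase protein haemopexin, followed at 0.949. Without the 3 libraries over 1000 TPM of Saa1 the log2 fold change of Ly6e was 0.17, and without the third run of file numbers it was −0.07. Among the 7 libraries under 1000 TPM of Saa1 the r between Ly6e and Saa1 was 0.856 (Spearman rho 0.857), and over all 10 the rho was 0.952. These genes were picked as the closest of the tested genes searched, so the correlations are a description.

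Gpihbp1 (ENSMUSG00000022579.10, chromosome 15, 75596628 to 75599481, plus strand) was measured at 31, 16.8, 19.4, 41.2 and 18.8 TPM in KO-labelled libraries 1 to 5, against 13.9, 17.3, 8.76, 10 and 14.3 TPM in controls 1 to 5. KO-labelled libraries 1, 3, 4 and 5 lay above all controls, and library 2 lay just under control 2. The means were 25.4 ± 10.4 TPM in KO-labelled libraries and 12.9 ± 3.47 TPM in controls (SD, n = 5 each; exact two-sided permutation p = 0.016). The log2 fold change was 0.92 ± 0.26 (SE), or 1.89-fold with a 95% interval of 1.28 to 2.8, and it was not called over all genes (adjusted p = 0.27, edgeR; 0.07, DESeq2). In the first run of file numbers KO-labelled library 1 had 31 TPM and its controls 13.9 and 17.3 TPM, and in the second library 3 had 19.4 TPM and its controls 8.76, 10 and 14.3 TPM. With the run as a covariate the log2 fold change of Gpihbp1 was 0.77 ± 0.32 (SE) and was not called. Without the libraries high in Saa1 it was 0.56 (adjusted p = 0.93, edgeR).

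Gpihbp1 differed between the groups about as much as endothelial genes at large, and Ly6c1 by far more. A list of 16 pan-endothelial genes, such as Pecam1, Cdh5 and Egfl7, had a mean log2 CPM of 3.40 ± 0.44 in KO-labelled libraries and 2.79 ± 0.42 in controls (SD, n = 5 each; exact two-sided permutation p = 0.048). Of these 16 genes 15 had a positive log2 fold change and 0 were called, with a median of 0.75, and the most abundant was Egfl7 at 19.2 TPM in KO-labelled and 11.7 TPM in control libraries. To set each gene against this background, the list's mean was subtracted from the gene's log2 CPM in every library, and the result was compared between groups by exact two-sided permutation tests. With the pairs of genes described further on this made 10 comparisons, over which p was adjusted.

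Relative to the pan-endothelial mean, Ly6c1 was 4.02 log2 units higher in KO-labelled libraries than in controls, with no overlap (exact permutation p = 0.0079, adjusted p = 0.02). Its mean stood at −0.44 ± 0.61 in KO-labelled libraries and −4.45 ± 0.24 in controls (SD, n = 5 each). The difference was 0.85 for Ly6a (exact permutation p = 0.032, adjusted p = 0.053), 0.23 for Gpihbp1 (p = 0.16, adjusted p = 0.2) and −0.28 for Ly6e (p = 0.57). The groups overlapped for these last genes. Leaving out KO-labelled library 2, 4 or 5 or control 1, 2 or 4 each took the permutation p of Ly6a to 0.063, and without control 2 its difference was 0.50. Without KO-labelled library 3 the difference of Gpihbp1 was 0.33 (exact permutation p = 0.048), and without control 4 that of Ly6e was 0.03. With the pan-endothelial mean as a covariate in edgeR, the log2 fold change was 4.60 for Ly6c1 (adjusted p = 0.00016), 1.01 for Ly6a (0.27), 0.27 for Gpihbp1 (0.54) and 0.54 for Ly6e (0.46).

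**Figure D3:**
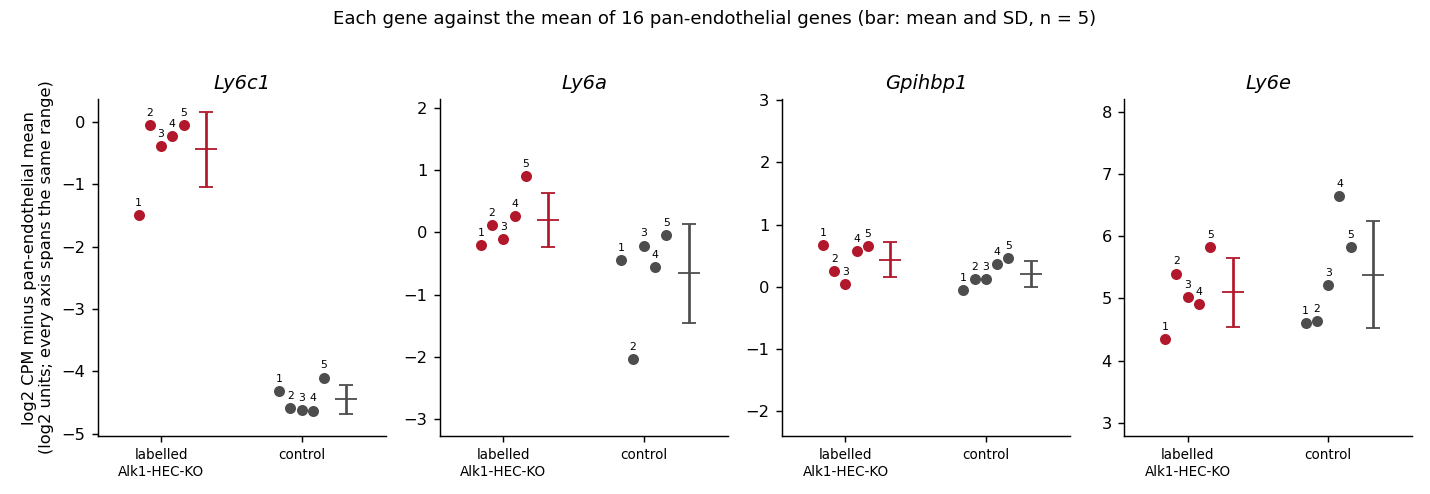
log2 CPM of Ly6c1, Ly6a, Gpihbp1 and Ly6e minus the mean log2 CPM of 16 pan-endothelial genes in each library. KO-labelled libraries stand left of controls, points carry replicate numbers, and bars give mean and SD (n = 5). All axes span the same number of log2 units. Ly6c1 separates the groups by 4.02 on average, while Gpihbp1 differs by 0.23 and its groups overlap.

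Pairs of the 4 tested genes were compared in the same way. Ly6c1 moved more than each of the others, by 3.17 log2 units over Ly6a, 4.30 over Ly6e and 3.78 over Gpihbp1 (exact permutation p = 0.0079 and adjusted p = 0.02 for each, with no overlap between groups). Ly6a moved more than Ly6e by 1.13 (exact permutation p = 0.024, adjusted p = 0.048), with overlapping groups. The differences of 0.62 between Ly6a and Gpihbp1 (exact permutation p = 0.12) and of −0.51 between Ly6e and Gpihbp1 (exact permutation p = 0.29) did not pass the test. Without KO-labelled library 1 the difference between Ly6a and Gpihbp1 was 0.77 (exact permutation p = 0.016).

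**Figure D4:**
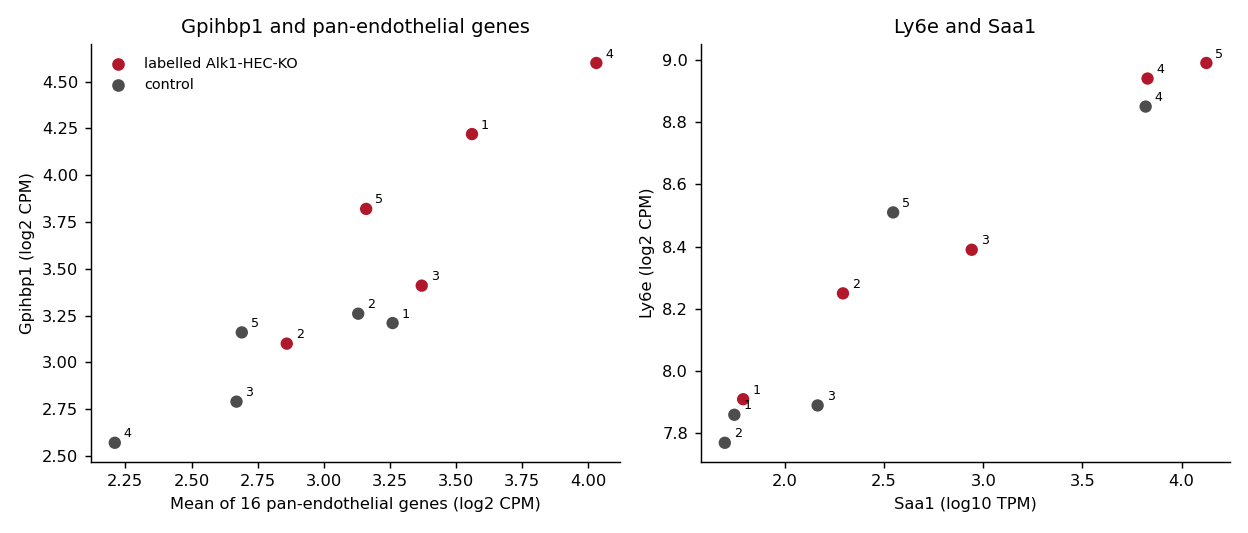
Left, log2 CPM of Gpihbp1 against the mean log2 CPM of 16 pan-endothelial genes. Right, log2 CPM of Ly6e against Saa1 on a log10 TPM axis. Each point is a library, coloured by group and numbered by replicate. Gpihbp1 runs along the pan-endothelial mean across both groups (r = 0.915), and Ly6e lies highest in the 3 libraries with Saa1 over 1000 TPM.

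The genes whose log2 CPM ran most like each of these genes differed between them. For Ly6c1 the 5 closest over the 10 libraries were Rflnb, a filamin-binding protein (r = 0.98), Trp53i11 (0.979), Jcad, a protein of endothelial cell junctions (0.96), Podxl, a sialomucin of vascular endothelium (0.955), and Gprc5b, an orphan receptor (0.955). All 5 were themselves called higher. Rflnb had a mean of 1.57 TPM in KO-labelled and 0.198 TPM in control libraries, and Trp53i11 of 7.14 TPM in KO-labelled and 1.45 TPM in control libraries. For Gpihbp1 the closest were Nxn (0.971), Gimap6 (0.962), Hcls1, a protein of blood cell lineages (0.953), Esam, an endothelial adhesion molecule (0.95), and Adgrl4, an endothelial adhesion receptor (0.948). None of these was called.

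For Ly6a the closest were Ckb, brain-type creatine kinase (0.949), Acvrl1 itself (0.943), Sh3bgrl3 (0.938), Wscd1 (0.935) and Cavin3, a caveolar coat protein (0.928), and none was called. Centring each group on its own mean removes the group difference. The closest genes were then Rarg, Tmem132a and Golm1 for Ly6c1 (0.936, 0.917 and 0.909), Ckb, Exosc5 and Mir99ahg for Ly6a (0.976, 0.924 and 0.924), and Rcn1, Gkap1 and Flt1 for Gpihbp1 (0.966, 0.96 and 0.956). For Ly6e they were Saa1, Tlr2, a pattern receptor, and Itm2c (0.955, 0.955 and 0.954). With the pan-endothelial mean Gpihbp1 had an r of 0.915 over the 10 libraries (Spearman rho 0.927), and 0.792 without KO-labelled library 4 and control 4, the libraries farthest from the median of that mean. Within groups Gpihbp1 had an r of 0.86 with it, Ly6c1 one of 0.621, Ly6a one of 0.359 and Ly6e one of −0.29. All are Pearson correlations over 10 libraries that share a preparation and depth. The genes were picked as the closest among the tested genes searched, with the same genes left out as above, and the values are a description.

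Elsewhere in the Ly6 family, 41 of 43 listed genes matched the annotation, 9 were tested, and Ly6c1 was the one called. Cd59a, an inhibitor of the complement membrane attack complex, had 38.6 ± 4.21 TPM in KO-labelled libraries and 37.0 ± 3.8 TPM in controls, a log2 fold change of 0.05 (adjusted p = 0.94, edgeR). Its copy Cd59b had 10.5 ± 2.95 TPM in KO-labelled and 13.6 ± 3.44 TPM in control libraries, a change of −0.48 (adjusted p = 0.68, edgeR). Ly6d, known from early B cells and skin, had 1.49 ± 0.431 TPM in KO-labelled libraries and 0.573 ± 0.257 TPM in controls, without overlap. Its log2 fold change of 1.32 ± 0.40 (SE) was not called (adjusted p = 0.30, edgeR). Summed without the 5 genes described above, the matched family genes reached 43.9 to 59.2 TPM in KO-labelled libraries and 47.9 to 57.4 TPM in controls. The listed Ly6g2 and Lypd10 were not matched by symbol, so these sums leave them out. In all 10 libraries 16 family genes were listed at 0, among them Psca, Slurp1, Lypd2 and Tex101.

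**Figure D5:**
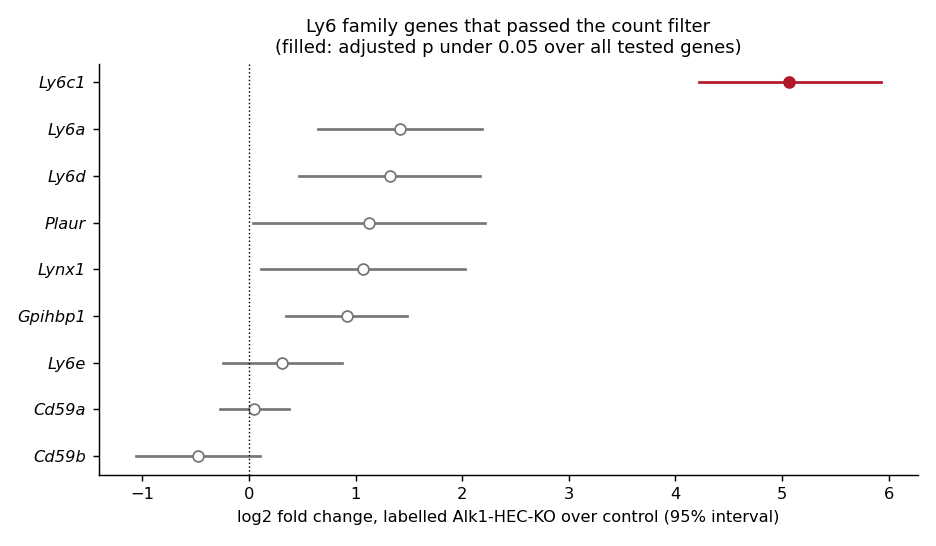
Log2 fold change, KO-labelled libraries over controls, with 95% intervals, for the 9 genes of the Ly6 family that passed the count filter. The filled point is Ly6c1 at 5.07, the one gene of these called over all tested genes, and open points were not called. The interval of Ly6c1, 4.22 to 5.93, lies apart from those of the other 8.

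The cluster around Ly6c1 was looked at for whether neighbours moved with it. Within 500 kb of Ly6c1 the annotation places 54 genes, of which 9 were tested and 1, Ly6c1, was called. The 6 of these that are not among the 5 genes described above had a median log2 fold change of 0.67, against 0.0 for all tested genes. Ly6d, described above, had the largest positive change of the 6, 1.32, with groups that did not overlap, and was not called. BC025446, next along the chromosome among tested genes at 75216376 to 75222661, was well expressed at 62.0 ± 13.3 TPM in KO-labelled libraries and 57.4 ± 23.5 TPM in controls, a change of 0.04 (adjusted p = 0.97, edgeR). The pseudogene 9030619P08Rik was the only tested neighbour with a negative value. It had 2.05 ± 1.5 TPM in KO-labelled libraries and 6.92 ± 3.15 TPM in controls, a log2 fold change of −1.74 ± 0.51 (SE; adjusted p = 0.29, edgeR). Jrk, Them6 and Lynx1 had changes of 1.07, 0.28 and 1.07 and were not called.

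No partner of Gpihbp1 in triglyceride handling was called, where 0.186% of all tested genes were called higher and 0.171% lower. At those shares a short list without a call says little, and the same holds for the lipid lists below. Of 8 lipases and lipase maturation genes, all tested, 7 had a negative log2 fold change (median −0.22, against 0.0 for all tested genes). Lpl, the lipase that Gpihbp1 carries, had a mean of 3.58 TPM in KO-labelled and 7.07 TPM in control libraries, a change of −0.95 ± 0.40 (SE; adjusted p = 0.55, edgeR). Lipg, endothelial lipase, had 2.32 TPM in KO-labelled and 7.21 TPM in control libraries, a change of −1.72 ± 0.78 (SE; adjusted p = 0.6, edgeR). The groups overlapped for both. Lipc, the hepatic lipase, had 79.4 TPM in KO-labelled and 89 TPM in control libraries. Lmf1, which matures these lipases, had 29.9 TPM in KO-labelled and 32.9 TPM in control libraries. Its partner in the endoplasmic reticulum, Sel1l, had 20.7 TPM in KO-labelled and 20.3 TPM in control libraries. The convertases Furin, Pcsk6 and Pcsk5, which cleave lipases or their inhibitors, had 57.2, 18.6 and 1.23 TPM in KO-labelled libraries and 50.1, 21.5 and 1.21 TPM in controls.

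Of 7 secreted regulators of lipoprotein lipase, 0 were called (median log2 fold change 0.11). The inhibitors Angptl4 and Angptl8 had 54.3 and 115 TPM in KO-labelled libraries and 64.1 and 125 TPM in controls. Apoc2, the cofactor of the lipase, and Apoa5, which favours its action, had 541 and 633 TPM in KO-labelled libraries and 453 and 495 TPM in controls. The inhibitory apolipoproteins Apoc1 and Apoc3 stood at 11749 and 6105 TPM in KO-labelled libraries and at 10559 and 5178 TPM in controls. The log2 fold changes of these named genes ran from −0.41 for Angptl4 to 0.28 for Apoa5, with overlapping groups in each case.

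Lipoprotein receptors and ligands gave 0 calls among 7 tested genes (median 0.01). The remnant receptor Lrp1 and the lipolysis-stimulated receptor Lsr had 206 and 141 TPM in KO-labelled libraries and 194 and 144 TPM in controls. Sdc1, a heparan sulphate carrier, and Scarb1, the HDL receptor, had 82.1 and 91.3 TPM in KO-labelled libraries and 72.5 and 72 TPM in controls. Apoe and Apob, which the particles carry, had 18267 and 759 TPM in KO-labelled libraries and 17331 and 664 TPM in controls.

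The list for fatty acid uptake by endothelium had 6 of 10 genes tested and 0 called (median 0.11). Cd36, the fatty acid translocase, had 5.7 TPM in KO-labelled and 4.26 TPM in control libraries. The carriers Fabp4 and Fabp5 had 7.09 and 94.5 TPM in KO-labelled libraries and 4.27 and 108 TPM in controls. Pparg, a nuclear receptor that drives Fabp4 in fat cells, had 1.83 TPM in KO-labelled and 4.01 TPM in control libraries, a log2 fold change of −1.22 ± 0.39 (SE; adjusted p = 0.36, edgeR). The transporters Slc27a1 and Slc27a4 had 2.59 and 10.2 TPM in KO-labelled libraries and 1.88 and 9.55 TPM in controls. The untested Tcf15, Meox2, Aqp7 and Slc27a3, named after their values were seen, were under 1 TPM in every library. Their means were 0.351, 0.0575, 0.0725 and 0.154 TPM in KO-labelled libraries and 0.0137, 0, 0.017 and 0.239 TPM in controls. Of these only Tcf15 had groups without overlap, on 28 counts in KO-labelled libraries and 1 in controls.

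Other endothelial lists give the setting of Ly6c1 and Gpihbp1. Of 11 tested markers of continuous and capillary endothelium, listed with earlier results of these data known, 5 were called higher, where 0.186% of all tested genes were called higher. The list had 10 positive log2 fold changes and 1 negative, with a median of 1.39, against 0.0 for all tested genes. Those called were Emcn, an endothelial sialomucin (2.02), Cd34, a sialomucin of capillaries (2.80), Cldn5, a tight junction protein (1.40), Podxl (1.82), and, named after its value was seen, Cav1, the caveolar coat protein (2.11). The most abundant marker, the water channel Aqp1, had 24.7 TPM in KO-labelled and 16.9 TPM in control libraries and was not called. The negative fold change was that of Vwf, the von Willebrand factor gene, with 0.987 ± 0.535 TPM in KO-labelled libraries and 1.56 ± 0.445 TPM in controls (SD, n = 5 each), a log2 fold change of −1.16 that was not called (adjusted p = 0.38, edgeR). Plvap, which forms the diaphragms of endothelial pores, and Cd300lg, a capillary surface protein, had log2 fold changes of 0.14 and 0.23 and were not called. Vwf, Plvap and Cd300lg were named after their values were seen. Of 14 tested sinusoidal markers 0 were called, with a median of 0.08, and the most abundant, the lectin gene Clec4g, had 25.6 TPM in KO-labelled and 25 TPM in control libraries.

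None of the tested markers of other cell types that carry Ly6 antigens was called, though most had positive log2 fold changes. As 0.186% of all tested genes were called higher, the lack of calls among so few tested markers says little. Of 10 monocyte genes 4 were tested, all with a positive log2 fold change (median 0.86, against 0.0 for all tested genes). The summed level of the list was 7.75 to 11 TPM in KO-labelled libraries and 4.73 to 10.6 TPM in controls, most of it Plac8, at 6.03 TPM in KO-labelled and 5.09 TPM in control libraries. Of 12 neutrophil genes 2 were tested (median 1.43). The list summed to 3.20 to 25.8 TPM in KO-labelled libraries and 1.38 to 7.07 TPM in controls. Its most abundant gene, S100a9, had 4.87 TPM in KO-labelled and 1.53 TPM in control libraries, with overlapping groups. The log2 fold change of S100a9 was 1.76 ± 0.92 (SE; adjusted p = 0.65, edgeR). The neutrophil antigen gene Ly6g was at 0 in 3 KO-labelled libraries and in 4 controls. Its means, 0.0252 TPM in KO-labelled and 0.128 TPM in control libraries, ran the other way and lay near 0. Of 15 T and NK cell genes 2 were tested (median 0.29). The list summed to 6.04 to 13.7 TPM in KO-labelled libraries and 3.19 to 7.01 TPM in controls.

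Of 8 B and plasma cell genes 6 were tested, 5 of them with a positive log2 fold change (median 0.88). The list summed to 9.68 to 23.9 TPM in KO-labelled libraries and 5.61 to 19.3 TPM in controls. Of 11 fibroblast and mesothelial genes 7 were tested (median 0.4). The list summed to 5.53 to 22.7 TPM in KO-labelled libraries and 7.47 to 9.1 TPM in controls. The adipocyte list matters because fat is rich in Gpihbp1. Its sums were 0.75 to 4.12 TPM in KO-labelled libraries and 1.8 to 4.57 TPM in controls, and Lep was at 0 in all 10 libraries. The part of these cell types in the values above was not tested.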

How the data were processed

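RNA of 10 whole-liver libraries was measured, 5 labelled Alk1-HEC-KO and 5 controls, grouped by title. The authors deposited estimated counts and TPM per gene, and per the submitters' processing notes used Trim Galore 0.6.4, kallisto 0.4.6 and GRCm38.p6. How transcripts were summed to genes and whether strand was used are not given in the sources used here. Of the nonzero deposited estimated counts 38.28% were whole within 1e-06, and all were rounded, with a change of at most 0.00078% in a library total. Of 55385 gene IDs 55144 matched GENCODE M21. Levels are the TPM that the authors deposited.

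Counts passing filterByExpr were scaled by TMM and tested with the robust quasi-likelihood test (edgeR 4.0.16, R 4.3.3), group as the only term, with Benjamini-Hochberg adjustment over 12872 genes (biological coefficient of variation 0.272). Alternatives used DESeq2 1.42.0, limma 3.58.1 on log2(TPM + 1) and log2(TPM + 0.1), other scalings and filters, covariates and left-out libraries. log2 CPM used a prior count of 2. Single values were compared by exact permutation tests (scipy 1.17.1). Intervals are at 95%.

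The genes, lists, tests and alternatives were chosen with earlier results of these data known. Named were Acvrl1, the 5 genes, family and lipid genes called or with a mean of 1 TPM or more in either group, and of other lists up to 4 called genes and the most abundant. Added were, per tested gene, the 5 tested genes closest by Pearson r and the 3 closest within groups, and tested genes within 500 kb of Ly6c1. Of the lipid genes that this rule takes, 2 are not reported here.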

Additional observations from a re-analysis of the deposited data

How the results depend on the processing

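Ly6c1 stayed called and positive in all 25 alternatives run, with log2 fold changes of 4.80 to 5.31 when a library was left out and 3.30 to 5.47 in the others. The pair's sum did so too (3.79 to 4.28, and 3.0 to 4.27 in the others). Gpihbp1 was not called in any of 25 (0.27 to 1.08). Ly6a was called under DESeq2 alone (1.42) of 25 alternatives (0.83 to 1.6). Without the third run of file numbers Ly6e was reversed, at −0.07. Ly6e minus the pan-endothelial mean lay between −0.48 and 0.03 when a library was left out. For these reversals the cause was not tested. The Ly6c2 difference in mean TPM lay between 0.615 and 0.96 when a library was left out. As a log2 fold change, tested over all genes and called in no case, Ly6c2 was at 1.3 with no count filter and with at least 10 counts in total, 1.33 under DESeq2, 0.55 under limma with a pseudocount of 1 with or without a filter, 1.08 with 0.1, 1.42 without the third run, 1.1 without libraries high in Saa1 and 1.36 without those high in Fos. With the replicate block the log2 fold changes were 4.98 for Ly6c1 (adjusted p = 0.0012, edgeR), 1.45 for Ly6a, 0.32 for Ly6e, 0.84 for Gpihbp1 and 3.99 for the sum, and no call changed. Same-numbered libraries did not deviate together throughout, so the numbers were not taken as pairs. The r of their deviations ran from −0.1 to 0.276, highest for number 1, with 2 of 5 best matched to their own number.

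Genes called higher numbered 24 and lower 22. Left-out libraries gave 18 to 40 higher and 15 to 43 lower, the top of both without KO-labelled library 1. Without a count filter 68 and 51 were called, under DESeq2 83 and 75, under limma on log2(TPM + 1) 6 and 7, without a filter 1 and 5, and on log2(TPM + 0.1) 11 were lower. The run covariate left 2 and 3, dropping the third run 8 and 10, dropping libraries high in Fos 7 and 10, dropping those high in Saa1 11 higher, and the pan-endothelial covariate 6 and 13. Depth limits Ly6c2 and the control level of Ly6c1, with 30 and 25 counts over 5 controls.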
